A study of Mus musculus with 14 samples.

Results

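The genes described here were 8 regulators of the G1 phase of the cell cycle, namely the D-type cyclins Ccnd1, Ccnd2 and Ccnd3, cyclin E1 (Ccne1), the cyclin-dependent kinases Cdk4 and Cdk2, the phosphatase Cdc25a and the E2F partner Tfdp1. Every probe set assigned to exactly 1 of these symbols by the platform annotation was taken, which gave 14 probe sets for the 8 genes among 10833 probe sets that carry a single symbol (8251 distinct symbols). The signals came from 14 Affymetrix Murine Genome U74v2 arrays of lung tumors and normal lung. Tumors arose in SPC/c-Myc mice (CD2F1 background), in which a human surfactant protein C promoter drives the c-Myc transgene in respiratory epithelium, and which develop papillary lung adenocarcinomas. The tumor groups were 3 small tumor samples (about 1 mm, each a pool of 3 to 4 tumors from 1 animal), 4 middle-sized tumors (4 to 5 mm) and 3 large tumors (10 mm or more). They were set against 4 lungs of non-transgenic mice of the same background, and all mice were 9 to 13 months old. No transgenic lung outside the tumors was analysed here, so transgene and tumor state cannot be told apart, and in bulk tissue a lower signal from fewer cells of a type cannot be told apart from less RNA per cell.

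Cells pass from G1 into S phase when cyclin-dependent kinases phosphorylate the retinoblastoma protein and release E2F transcription factors. D-type cyclins bind Cdk4 and Cdk6 in response to growth signals, cyclin E binds Cdk2 later in G1, and Cdc25a removes inhibitory phosphates from Cdk2. Tfdp1 encodes DP1, with which E2F proteins pair to bind DNA, and c-Myc, which binds the letters CACGTG (an E-box) as a dimer with Max, is known to act on several of these genes in cultured cells.

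RefSeq promoter sequences (GRCm38.p6) were given for 6 of the 8 genes, namely Ccnd3, Cdk4, Ccne1, Cdk2, Cdc25a and Tfdp1. The 250 bases before each annotated start were searched on both strands for CACGTG and for the E2F letters TTTCCCGC, TTTCGCGC, TTTGCCGC and TTTGGCGC, and no match of one motif overlapped the other. Cdk4 and Tfdp1 are printed because their signals rose most in the tumors, and the capitals mark the matches. Cdk4 (gene on chromosome 10 from 127063535 to 127067288, plus strand) held 4 CACGTG matches and no E2F match in chr10:127063285-127063534, and Tfdp1 (gene on chromosome 8 from 13338725 to 13378448, plus strand) held 1 of each in chr8:13338501-13338750, GCGCGAAA being the E2F letters read on the other strand.
Cdk4: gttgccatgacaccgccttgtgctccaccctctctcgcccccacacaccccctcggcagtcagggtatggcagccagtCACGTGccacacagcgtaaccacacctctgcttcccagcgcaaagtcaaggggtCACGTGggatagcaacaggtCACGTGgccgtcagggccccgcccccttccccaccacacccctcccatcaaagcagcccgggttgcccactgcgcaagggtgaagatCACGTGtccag
Tfdp1: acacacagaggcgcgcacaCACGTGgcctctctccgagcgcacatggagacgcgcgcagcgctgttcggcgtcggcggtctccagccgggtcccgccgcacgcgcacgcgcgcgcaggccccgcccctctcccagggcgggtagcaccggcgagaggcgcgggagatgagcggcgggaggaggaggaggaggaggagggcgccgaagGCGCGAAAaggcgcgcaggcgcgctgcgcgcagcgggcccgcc
The Cdk4 matches began at positions -172, -118, -98 and -11 from the start, and those of Tfdp1 at -231 for CACGTG and at -43 for the E2F letters. Of 32851 promoter windows of the same length, 6.02% held at least 1 CACGTG, 0.0213% (7 windows) held 4 or more, and 1.86% held at least 1 set of E2F letters. A second Tfdp1 start (chr8:13338554-13338803) held only the E2F match.

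Cdk2 and Cdc25a are shown as the other promoters with a match, each with 1 set of E2F letters in capitals and no CACGTG. The Cdk2 window was chr10:128705052-128705301 on the minus strand and the Cdc25a window chr9:109875329-109875578 on the plus strand.
Cdk2: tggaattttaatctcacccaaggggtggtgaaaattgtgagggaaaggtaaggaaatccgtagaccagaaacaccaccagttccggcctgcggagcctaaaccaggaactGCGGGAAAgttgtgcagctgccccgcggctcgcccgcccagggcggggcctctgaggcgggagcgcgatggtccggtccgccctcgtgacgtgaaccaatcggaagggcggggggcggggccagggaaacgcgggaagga
Cdc25a: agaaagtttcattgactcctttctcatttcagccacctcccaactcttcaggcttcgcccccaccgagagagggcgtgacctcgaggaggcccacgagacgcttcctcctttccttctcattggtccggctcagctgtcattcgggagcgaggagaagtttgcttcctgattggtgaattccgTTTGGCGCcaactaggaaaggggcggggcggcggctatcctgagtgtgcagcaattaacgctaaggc
The letters began at position -140 in Cdk2 and at -67 in Cdc25a. The window of Ccne1 and both windows of Ccnd3 held neither motif. Such letters are a description of the sequence and were not tested for binding.

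Myc was measured by 104712_at, a probe set that the annotation gives only as Myc, and whether it reads the transgene, the endogenous gene or both was not tested. Its signal was 1738, 1391 and 1417 in the small tumors, 325, 1246, 451 and 759.6 in the middle tumors and 2165, 2008 and 1055 in the large tumors, against 24.1 to 35.6 in control lungs. All tumors stood above all controls, and the 4 middle tumors spanned a wider range downward than the other sizes. Across the series, 8127 probe sets passed the filter (3 or more arrays with a signal of 70 or above) and were fitted with limma on log2 signals floored at 70. The array of middle tumor 3 held 3125 values at or near 0 (25.0% of the table), which were treated as missing. Its trimmed mean signal was 192 with those values counted in, where the other 13 arrays gave 250. The 192 therefore does not show that its remaining signals read low. The signals of Ccnd3, of Cdk4 at 160538_at and of Tfdp1 at 97565_r_at were among the missing values of that array. Marker signals of several cell types differed between the tumors and normal lung. Endothelial markers summed to 2070 to 3721 signal units in tumors, against 22452 to 28042 in control lungs, and 12 of the 13 tested fell. Of the alveolar type I markers 5 of 5 fell and of the fibroblast and smooth muscle markers 9 of 12, and 2 of those 9 had no tumor at 70 or above. Of all tested probe sets 20.8% fell and 22.7% rose in all tumors at an adjusted p under 0.05. Of 5 tested alveolar type II markers 1 rose and 0 fell (median log2 0.37), namely Sftpb (log2 0.63, adjusted p = 0.00807), while Sftpc averaged 9382 ± 884 in tumors and 9806 ± 2846 in control lungs (SD, n = 10 and 4, adjusted p = 0.937).

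Of the 14 probe sets, 12 passed the filter, at least 1 for each gene. When all tumors, as the average of the 3 size means, were set against control lung, 8 of the 12 rose, which belonged to Ccnd1, Cdk4, Ccne1, Cdk2 and Tfdp1, where 22.7% of all tested probe sets rose at an adjusted p under 0.05. The other called probe sets were 2 that fell, for Ccnd2 and Ccnd3, where 20.8% of all tested fell, and 1 of 11 fell with Ccnd2 left out. The median log2 fold change was 0.65 over the 12 and 0.03 over all 8127. Every tumor with a value lay above every control for 2 of the 12, both of Tfdp1, where this held for 10.4% of all tested. Every tumor lay below every control for 2 of the 12, Ccnd2 and Ccnd3, where this held for 12.6% of all tested. Ccnd2 reached the filter only through control lungs and Tfdp1 97565_r_at only through tumors, so the filter itself favoured a difference in those 2.

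Cyclin D1 rose and cyclin D3 fell, and cyclin D2 was above the floor only in control lungs. Ccnd1, whose protein activates Cdk4 and Cdk6, has 2 probe sets. At 94232_at the signals were 1535, 1547 and 1345 in small tumors, 1534, 1583, 973 and 1298 in middle tumors and 1215, 1491 and 1178 in large tumors, against 846, 823, 971 and 998 in control lungs. Only middle tumor 3 lay within the control range. The log2 fold change over all tumors was 0.58 ± 0.13 (SE, limma adjusted p = 0.00215), a 1.50-fold rise. By size it rose 1.62-fold in small tumors (adjusted p = 0.00494), 1.46-fold in middle tumors (adjusted p = 0.0151) and 1.42-fold in large tumors (adjusted p = 0.0278). The call in middle tumors was lost without middle tumor 2 (adjusted p = 0.0533), and that in large tumors without control lung 1, control lung 2 or large tumor 2 (adjusted p of 0.0674 to 0.125). Quantile normalization (adjusted p = 0.0596) and an adjusted t-test (0.0865) also lost the call in middle tumors.

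The second Ccnd1 probe set, 94231_at, read 340.1, 333 and 391 in small tumors, 259, 372, 181 and 247 in middle tumors and 330.4, 417 and 338 in large tumors, against 199, 172, 153 and 246 in control lungs. Again middle tumor 3 was the only tumor inside the control range. It rose 1.68-fold over all tumors (log2 0.75 ± 0.18, adjusted p = 0.00357), 1.87-fold in small tumors (adjusted p = 0.00786) and 1.90-fold in large tumors (adjusted p = 0.00619). In middle tumors its log2 fold change of 0.43 (95% confidence interval -0.03 to 0.89) missed the threshold (adjusted p = 0.146), and without middle tumor 3 it was 0.60 (adjusted p = 0.0406).

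Ccnd2, a D-type cyclin with its own tissue pattern, was measured by 97504_at. Its signals were 48.0, 10.3 and 15.1 in small tumors, 17.3, 9.08, 5.61 and 40.3 in middle tumors and 16.2, 6.65 and 12.7 in large tumors, against 71.0, 98.9, 145 and 92.8 in control lungs. All 10 tumors lay under the floor of 70 and all 4 control lungs above it. The probe set thus passed the filter through control lungs alone, so only a fall was open to it. The p-values that follow are descriptive for that reason. With tumors held at the floor Ccnd2 was at least 1.41-fold lower in all tumors (log2 -0.49 ± 0.13, adjusted p = 0.00738). Tumors held at 1 value have no spread, so this SE and p do not measure variation among tumors. With only the groups compared in the fit, the limma adjusted p was 0.104 in small, 0.0957 in middle and 0.109 in large tumors. With no floor the log2 fold change was -2.78 (adjusted p = 0.000726), and with a floor of 35 it was -1.43 (adjusted p = 2.79e-05). By size, with the floor of 35, Ccnd2 was called in small (log2 -1.34, adjusted p = 0.000718), middle (log2 -1.44, adjusted p = 0.000216) and large tumors (log2 -1.49, adjusted p = 0.000248). With the floor of 70 the adjusted p passed 0.05, at 0.052 to 0.0886, when some single arrays were left out. These were control lung 2 in all 3 sizes, control lung 3 and any tumor of the group in small and large tumors, and middle tumor 2, 3 or 4 in middle tumors. Leaving out tumors moved only the p, as the log2 value held by the floor stayed at -0.49.

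Ccnd3, a D-type cyclin prominent in lymphocytes and differentiated cells, was measured by 160545_at. The signals were 429, 432 and 516 in small tumors, 399, 365 and 329.7 in 3 middle tumors and 517, 431 and 331 in large tumors, against 666, 621, 739 and 836 in control lungs. The groups did not overlap, with the highest tumor at 517 and the lowest control lung at 621. Ccnd3 was 1.73-fold lower over all tumors (log2 -0.79 ± 0.14, adjusted p = 0.000375). The drop was 1.55-fold in small (adjusted p = 0.0113), 1.96-fold in middle (adjusted p = 0.00082) and 1.70-fold in large tumors (adjusted p = 0.00358). Lymphocyte markers summed over 10 probe sets to 699 to 3257 signal units in tumors, against 2680 to 3673 in control lungs. Of these markers 4 of 7 tested fell, where 20.8% of all tested probe sets fell. The part of this and of the endothelial and mesenchymal markers in the signals of Ccnd2 and Ccnd3 was not tested.

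**Figure D1:**
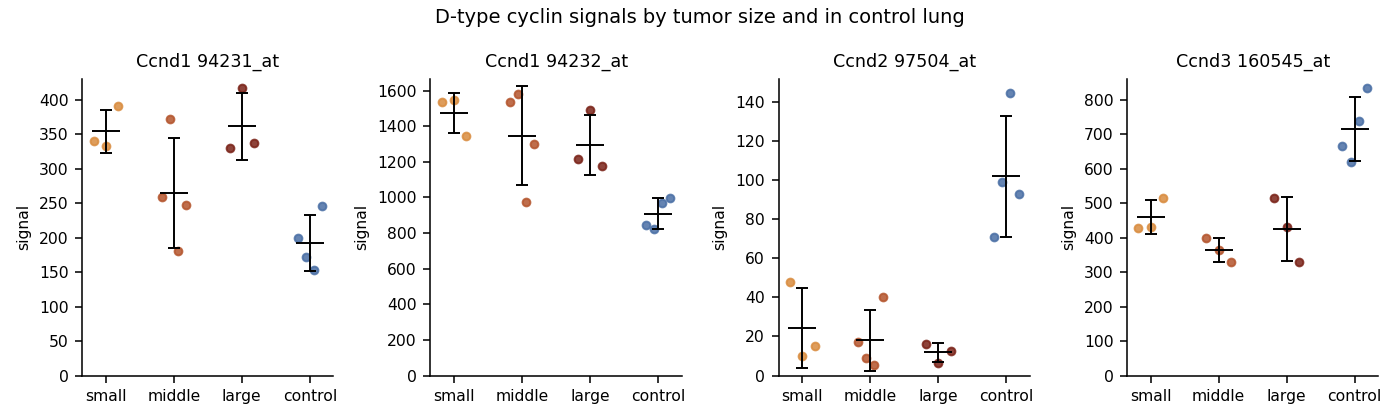
Signals of the D-type cyclins (linear axis, MAS5 signal) by tumor size and in control lung, with 1 point per array and bars for mean ± SD. Both Ccnd1 probe sets are higher in all tumors but middle tumor 3, whereas all tumors with a value lie under all control lungs for Ccnd2 and Ccnd3.

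Since Ccnd1 and Ccnd3 moved in opposite directions, their ratio within each array restates both changes in 1 value per array, and it is given as a description with no test. It was chosen after the values were seen. Taken at 94232_at over 160545_at, the ratio was 1.85 to 3.40 times the control mean in 9 tumors, against 0.936 to 1.04 times in the 4 control lungs. At 94231_at it was 2.40 to 3.83 times the control mean in tumors, against 0.778 to 1.12 times in control lungs. Middle tumor 3, whose Ccnd1 signals lay within the control range, had no Ccnd3 value and so no ratio. In the 9 tumors Ccnd1 lay above and Ccnd3 below every control lung, so the ranges of the ratio could not overlap.

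**Figure D2:**
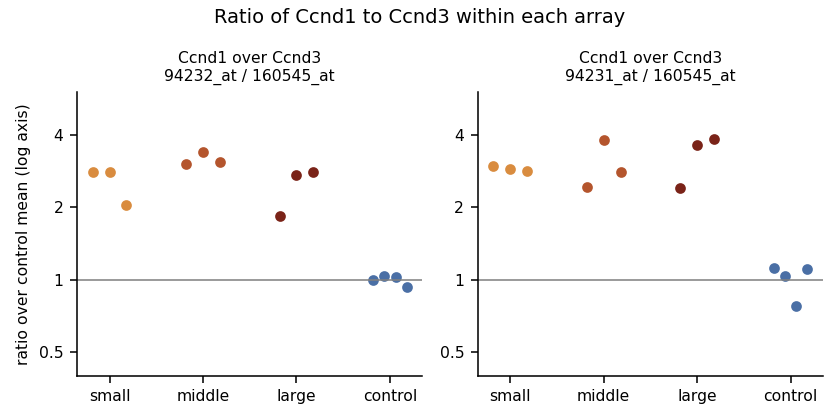
Ratio of Ccnd1 to Ccnd3 within each array over the mean of that ratio in control lungs (log axis), for both Ccnd1 probe sets, with 1 point per array. The tumors lie between 1.85 and 3.40 at 94232_at and between 2.40 and 3.83 at 94231_at, above all control lungs. Middle tumor 3 had no Ccnd3 value and has no point.

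Cdk4, the kinase that D-type cyclins activate, rose over all tumors at both probe sets. At 160538_at its signals were 1789, 1796 and 1682 in small tumors, 1120.4, 1679 and 1566 in 3 middle tumors and 1899.9, 1868 and 1737 in large tumors, against 782, 718, 829 and 1171 in control lungs. Middle tumor 1 was the only tumor below the highest control lung. Over all tumors Cdk4 rose 1.94-fold (log2 0.95 ± 0.14, adjusted p = 0.000106). The rise was 2.04-fold in small (adjusted p = 0.000661), 1.67-fold in middle (adjusted p = 0.00662) and 2.13-fold in large tumors (adjusted p = 0.000344).

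The other Cdk4 probe set, 101017_at, read 677, 625 and 791 in small tumors, 269, 752, 382 and 692 in middle tumors and 900.4, 614 and 699 in large tumors, against 272, 301, 281 and 165 in control lungs. Middle tumor 1 lay inside the control range, as at 160538_at. The rise was 2.51-fold over all tumors (log2 1.33 ± 0.25, adjusted p = 0.000567) and 2.79-fold in small (adjusted p = 0.00251), 1.93-fold in middle (adjusted p = 0.0239) and 2.93-fold in large tumors (adjusted p = 0.0016). The middle call was lost without control lung 4 (adjusted p = 0.0772), middle tumor 2 (adjusted p = 0.0828) or middle tumor 4 (adjusted p = 0.0743), and also with no filter (0.0677), with only the groups compared (0.0841) and by the t-test of the methods (0.0575 unadjusted, 0.164 adjusted).

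Cyclin E1 rose over all tumors, with a call that was lost when any of several single arrays was left out. Ccne1 binds Cdk2 late in G1, and 103034_at gave 270.2, 165 and 182 in small tumors, 133, 190.4, 166 and 165 in middle tumors and 256, 148 and 278 in large tumors, against 137, 59.5, 135 and 168 in control lungs. Only 5 of the 10 tumors lay above every control lung. Its rise over all tumors was 1.58-fold (log2 0.66 ± 0.24, adjusted p = 0.0352), and without control lung 2, the array with 59.5, the log2 fold change was 0.40 (adjusted p = 0.177). The call was also lost without control lung 1, control lung 3, small tumor 1, middle tumor 2, large tumor 1 or large tumor 3 (adjusted p of 0.0514 to 0.063). It was lost too with no filter (adjusted p = 0.081) and by the adjusted t-test (0.0606). Of the sizes only large tumors passed (1.80-fold, adjusted p = 0.0415), whereas small tumors had 1.65-fold (adjusted p = 0.0819) and middle tumors 1.34-fold (adjusted p = 0.3). Leaving out control lung 4 gave small tumors an adjusted p of 0.0481, and leaving out control lung 1, 2 or 3, small tumor 3 or large tumor 1 or 3 gave large tumors 0.0526 to 0.154. The large call was also lost with no filter (0.0939), only the groups compared (0.0857), values near 0 kept (0.0536) and the t-test (0.0887 unadjusted, 0.178 adjusted). Small tumors gained a call with median scaling (adjusted p = 0.0487) and with array weights (adjusted p = 0.0174).

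Cdk2, the kinase of cyclin E, was called at 94412_at. The signals were 189.8, 206 and 208 in small tumors, 109, 153, 153 and 173 in middle tumors and 211, 168 and 137 in large tumors, against 125, 110.4, 103 and 104 in control lungs. All tumors but middle tumor 1 lay above all control lungs. Cdk2 rose 1.54-fold over all tumors (log2 0.63 ± 0.15, adjusted p = 0.00421), 1.82-fold in small (adjusted p = 0.00373) and 1.53-fold in large tumors (adjusted p = 0.0245). In middle tumors it had 1.31-fold (adjusted p = 0.121), and without middle tumor 1 the log2 fold change was 0.53 (adjusted p = 0.0268). The call in large tumors was lost without large tumor 1 (adjusted p = 0.119), large tumor 2 (adjusted p = 0.0599) or control lung 3 (adjusted p = 0.0552). The other Cdk2 probe set, 94411_at, read 4.54 to 31.6 in tumors and 3.62 to 23.8 in control lungs, under the floor on every array, and was not tested.

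Cdc25a, the phosphatase that activates Cdk2, did not pass the test. At 97390_at the signals were 225, 198 and 225 in small tumors, 266, 190.5, 257 and 177 in middle tumors and 265, 278 and 250.1 in large tumors, against 169, 165, 168 and 262 in control lungs. Control lung 4 stood with the higher tumors and the other 3 control lungs below all tumors. The log2 fold change over all tumors was 0.31 (95% confidence interval -0.04 to 0.66, adjusted p = 0.143), and without control lung 4 it was 0.47 (adjusted p = 0.025). Large tumors had 1.41-fold (adjusted p = 0.0775, and 0.0154 without control lung 4), small tumors 1.15-fold (adjusted p = 0.503) and middle tumors 1.17-fold (adjusted p = 0.418). Median scaling gave a call over all tumors (log2 0.42, adjusted p = 0.0308) and in large tumors (adjusted p = 0.0274). Array weights also gave a call over all tumors (log2 0.39, adjusted p = 0.0103) and in large tumors (adjusted p = 0.00831). The other Cdc25a probe set, 97389_at, read 2.86 to 14.1 in tumors and 4.54 to 14.4 in control lungs and was not tested.

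Tfdp1, the DNA-binding partner of E2F proteins, had the largest rise among the tested probe sets of these genes. At 101959_r_at, where the letter r marks a set for which the usual probe selection rules were relaxed, the signals were 911, 1154 and 1166 in small tumors, 435, 1042, 648 and 1174 in middle tumors and 870.3, 1206 and 1023 in large tumors, against 322, 300.0, 363 and 334 in control lungs. No tumor reached down to the control range, and middle tumors 1 and 3 were the lowest. Its rise was 2.87-fold over all tumors (log2 1.52 ± 0.21, adjusted p = 4.39e-05), with 3.25-fold in small (adjusted p = 0.000265), 2.33-fold in middle (adjusted p = 0.00191) and 3.11-fold in large tumors (adjusted p = 0.000293).

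At 101958_f_at, where the letter f marks probes shared by a family of similar sequences, Tfdp1 read 441, 518 and 464 in small tumors, 282, 383, 292 and 525 in middle tumors and 477, 450.1 and 535 in large tumors, against 226, 165, 235 and 145 in control lungs. The groups again did not overlap. It rose 2.30-fold over all tumors (log2 1.20 ± 0.18, adjusted p = 8.21e-05), with 2.50-fold in small (adjusted p = 0.000531), 1.90-fold in middle (adjusted p = 0.00423) and 2.57-fold in large tumors (adjusted p = 0.000344). The third probe set, 97565_r_at, was dim, with 56.9, 71.9 and 78.2 in small tumors, 40.6, 27.2 and 17.1 in 3 middle tumors and 87.4, 96.5 and 68.8 in large tumors, against 28.0, 25.2, 23.1 and 16.9 in control lungs. At the floor it had 1.08-fold (adjusted p = 0.344), and with no floor its log2 fold change was 1.22 (adjusted p = 0.00334). In large tumors its adjusted p was 0.0824, and 0.0133 without large tumor 3.

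**Figure D3:**
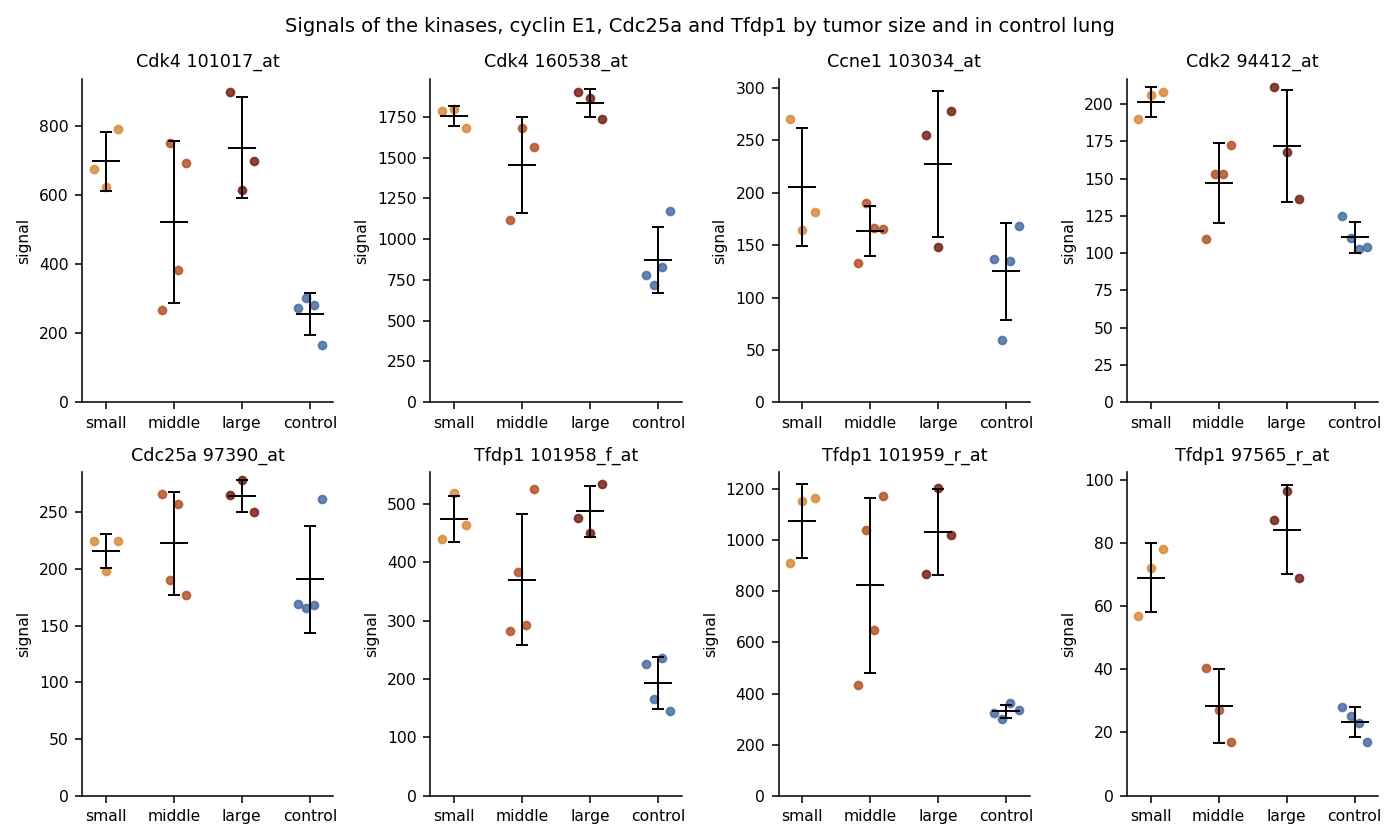
Signals of Cdk4, Ccne1, Cdk2, Cdc25a and Tfdp1 (linear axes, MAS5 signal) by tumor size and in control lung, with 1 point per array and bars for mean ± SD. Tfdp1 at 101958_f_at and 101959_r_at separates tumors from control lung, whereas middle tumor 1 falls to the control range for both Cdk4 probe sets and for Cdk2.

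The calls were next read by tumor size. In small tumors 7 of the 12 probe sets rose and 2 fell, where 18.7% of all tested rose and 16.3% fell. In middle tumors 5 rose and 2 fell, where 14.6% of all tested rose and 16.2% fell. In large tumors 8 rose and 2 fell, where 19.2% of all tested rose and 17.8% fell. These 3 comparisons share the same 4 control lungs. Ccnd1 at 94232_at, both Cdk4 probe sets and Tfdp1 at 101958_f_at and 101959_r_at rose, and Ccnd3 fell, in each of the 3, as did Ccnd2, for which the filter allowed no other change. In middle tumors none of these 5 rises passed an adjusted t-test (adjusted p of 0.0579 to 0.164).

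**Figure D4:**
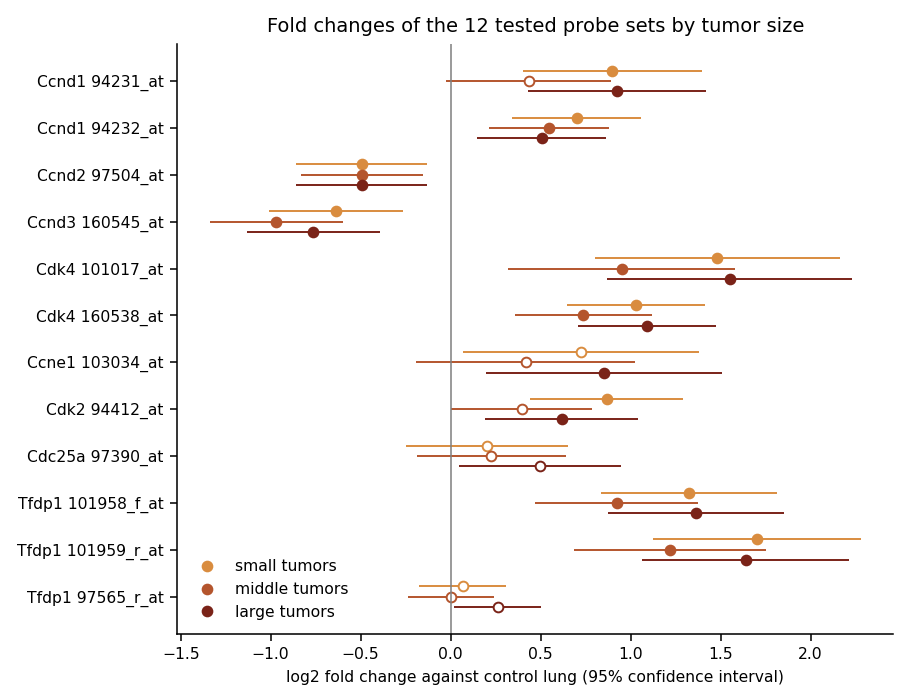
The log2 fold change against control lung with its 95% confidence interval for the 12 tested probe sets, with small, middle and large tumors from top to bottom in each row. Filled points passed an adjusted p under 0.05 and open points did not, and the Ccnd2 values are held at -0.49 by the signal floor.

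Between tumor sizes no difference passed for these genes. Small against large tumors, small against middle tumors and middle against large tumors each gave 0 of 12, where each gave 0% of all 8127 tested (limma). At an unadjusted p under 0.05 the members gave 0, 1 and 1, where 8.0%, 6.19% and 9.99% of all tested passed. Those single values were Cdk2, which was 1.39-fold higher in small against middle tumors (adjusted p = 0.794), and Tfdp1 at 97565_r_at, with a log2 difference of -0.26 in middle against large tumors (adjusted p = 0.487). An unpaired t-test, the type named in the study's methods, was run here on the floored log2 signals. Unadjusted it gave 1, 2 and 0, where 9.64%, 4.2% and 5.68% of all tested passed it, and 0 in each after adjustment. The intervals were wide, so that for Cdk4 at 160538_at the log2 difference of small against large tumors was -0.06 (95% confidence interval -0.47 to 0.35), for Tfdp1 at 101959_r_at 0.06 (-0.55 to 0.68) and for Ccnd3 0.13 (-0.27 to 0.52). Middle tumor 1 was the lowest tumor for Cdk4 at both probe sets, Ccne1, Cdk2 and Tfdp1 at 101958_f_at and 101959_r_at. How often it was the lowest over all tested probe sets was not counted.

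Middle tumor 1 also had the lowest Myc signal, 325. Its summed club and ciliated cell markers, 18357, and lymphocyte markers, 3257, were the highest of the tumors, where the control lungs had 14835 to 24402 and 2680 to 3673. Its endothelial (3164), alveolar type I (4602) and fibroblast and smooth muscle sums (4973) lay within the range of the other tumors. The control lungs had 22452 to 28042, 10676 to 16235 and 14999 to 16594 for these. The part of these markers in its low Cdk4, Cdk2, Ccne1 and Tfdp1 signals was not tested. The relation of each probe set to Myc over the tumors was then computed for 11 probe sets, with log2 values and permutation tests (exact for 9 tumors). This choice was made after the values were seen, middle tumor 1 among them. That tumor stays in the p-values, which are therefore descriptive. Without middle tumor 1, r was 0.907 and 0.720 for Cdk4 at 160538_at and 101017_at, 0.536 for Cdk2 and 0.296 for Ccne1. For Tfdp1 r was then 0.469 at 101959_r_at, 0.499 at 101958_f_at and 0.712 at 97565_r_at. For Ccnd1 it was 0.869 at 94231_at and 0.656 at 94232_at, for Ccnd3 0.788 and for Cdc25a 0.228.

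Cdk4 at 160538_at followed Myc most closely, with Pearson's r = 0.960 (exact permutation p = 0.000245, adjusted p = 0.00269) and Spearman's rho = 0.883 (exact permutation p = 0.00308, adjusted p = 0.0339) over 9 tumors. Without middle tumors 1 and 4, whose Myc signals lay farthest from the median, r was 0.812, and after each size group's mean was subtracted it was 0.919. Cdk4 at 101017_at had r = 0.857 (permutation p = 0.00445, adjusted p = 0.0245) and rho = 0.515 (permutation p = 0.133, adjusted p = 0.244) over 10 tumors, but r was 0.184 without middle tumors 1 and 3, so that relation rests on those 2 tumors.

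Tfdp1 at 101959_r_at had r = 0.747 (permutation p = 0.0179, adjusted p = 0.0394) and rho = 0.358 (permutation p = 0.312, adjusted p = 0.49), and r turned to -0.410 without the same 2 tumors. At 101958_f_at r was 0.710 (permutation p = 0.0252, adjusted p = 0.0462) and rho 0.261 (permutation p = 0.472, adjusted p = 0.577), and r was -0.388 without them, so both Tfdp1 relations rest on middle tumors 1 and 3. Cdk2 had r = 0.756 (permutation p = 0.0111, adjusted p = 0.0305) and rho = 0.721 (permutation p = 0.0231, adjusted p = 0.0655), with r = 0.467 without them. Ccnd1 differed between its probe sets, with r = 0.799 (permutation p = 0.00727, adjusted p = 0.0267) and rho = 0.624 (permutation p = 0.0584, adjusted p = 0.128) at 94231_at, where r was 0.659 without the 2, and r = 0.284 (permutation p = 0.426, adjusted p = 0.469) and rho = 0.164 (permutation p = 0.658, adjusted p = 0.658) at 94232_at. For the other 4 probe sets no adjusted permutation p was under 0.05. Ccnd3 had r = 0.493 (exact permutation p = 0.175, adjusted p = 0.214) and rho = 0.767 (exact permutation p = 0.0214, adjusted p = 0.0655), with r = 0.702 without middle tumors 1 and 4. Tfdp1 at 97565_r_at had r = 0.580 (exact permutation p = 0.0972, adjusted p = 0.153) and rho = 0.767 (exact permutation p = 0.0238, adjusted p = 0.0655), with r = 0.765 without the same 2. Ccne1 had r = 0.514 (permutation p = 0.126, adjusted p = 0.173) and rho = 0.309 (adjusted permutation p = 0.533), with r = 0.154 without middle tumors 1 and 3. Cdc25a had r = -0.05 (permutation p = 0.883, adjusted p = 0.883) and rho = 0.164 (adjusted permutation p = 0.658), with r = 0.726 without them. After each size group's mean was subtracted, r was 0.815 for Cdk4 at 101017_at, 0.692 for Cdk2 and 0.205 for Ccne1. For Tfdp1 it was 0.675 at 101959_r_at, 0.425 at 101958_f_at and 0.398 at 97565_r_at. For Ccnd1 it was 0.587 at 94231_at and 0.354 at 94232_at, for Ccnd3 0.189 and for Cdc25a -0.607.

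**Figure D5:**
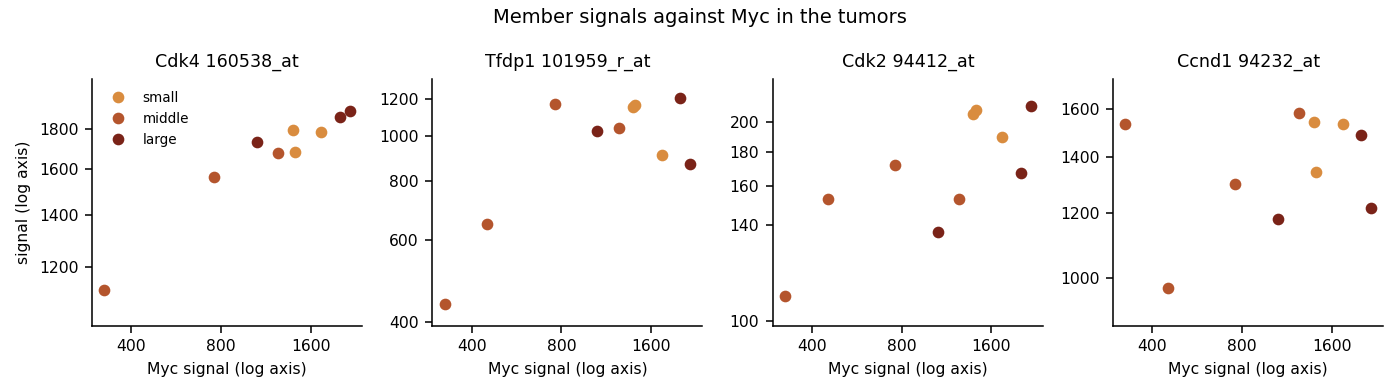
Signals of Cdk4, Tfdp1, Cdk2 and Ccnd1 against the Myc signal (both axes log scaled) with 1 point per tumor, coloured by size. Cdk4 at 160538_at rises with Myc over 9 tumors (r = 0.960), whereas the slope of Tfdp1 at 101959_r_at comes from the 2 tumors with the lowest Myc.

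Other genes of the same step were counted in all tumors against control lung. Of 16 other G1 kinases, activators and cyclins, 10 were tested, 6 rose and 0 fell, with a median log2 fold change of 0.46, where 22.7% of all tested probe sets rose and 20.8% fell. The largest rises were those of the Cdk-binding subunits Cks1b (932 ± 291 in tumors and 125 ± 24.4 in control lungs, SD, n = 10 and 4, log2 2.87 ± 0.26 SE, adjusted p = 7.11e-07) and Cks2 (log2 2.47 ± 0.42, adjusted p = 0.000299), followed by the ubiquitin ligase subunit Skp1 (log2 0.98 ± 0.18, adjusted p = 0.000658). Cyclin E2 (Ccne2) read 6.55 ± 4.03 in tumors and 0.751 ± 0.381 in control lungs under the floor, and was not tested.

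Of 10 Cdk inhibitors and pocket proteins, 9 were tested, 1 rose and 3 fell, where 22.7% and 20.8% of all tested probe sets did so. The inhibitor Cdkn1c, which encodes p57, rose (1063 ± 483 in tumors and 394 ± 45.2 in control lungs, SD, n = 10 and 4, log2 1.32 ± 0.30 SE, adjusted p = 0.0024). The retinoblastoma gene Rb1 itself fell (log2 -1.25, adjusted p = 9.85e-07), as did the Cdk4 inhibitors Cdkn2b (log2 -1.11, adjusted p = 0.00313) and Cdkn2d (log2 -1.11, adjusted p = 0.00419). Of 7 E2F family members and partners 2 were tested and none passed.

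Of the genes that E2F proteins are known to switch on in S phase, 14 of 21 tested rose and 0 fell (median log2 0.60), where 22.7% of all tested probe sets rose. Of these 21, 5 had no control lung at 70 or above and entered through tumors alone, so only a rise was open to them, and 9 of the other 16 rose. The largest rises were those of thymidine kinase Tk1 (log2 1.58, adjusted p = 0.00128), cyclin A2 (Ccna2, log2 1.45, adjusted p = 0.00107) and the methylated-DNA reader Uhrf1 (log2 1.24, adjusted p = 0.00495), which is 1 of the 5. Of 13 tested markers of G2 and mitosis 10 rose, but 8 of the 13 entered through tumors alone, Cdk1 among them, and 4 of the other 5 rose. The largest rises were those of Cdc20 (log2 2.30, adjusted p = 0.000569), Ccnb2 (log2 2.22, adjusted p = 0.00177) and Cdk1 (log2 2.10, adjusted p = 0.00112). Summed over their probe sets, these G2 and mitosis signals spanned 1253 to 7231 in tumors, against 762 to 1040 in control lungs.

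The probe sets most like each member over the arrays were sought among other genes, by the mean absolute difference of log2 signals after each control mean was subtracted. Cdk4 at 160538_at lay closest to the nuclear import genes Ipo7 (0.12) and Ran (0.12) and the chaperonin gene Tcp1 (0.13) over 13 arrays. Tfdp1 at 101959_r_at lay closest to Utp4 (0.10), Aldh7a1 (0.15) and Gnpnat1 (0.17) over 14 arrays, and Ccnd1 at 94232_at to Mrpl39 (0.13), Tbc1d14 (0.14) and Cdk8 (0.14). Cdk2 lay closest to Usp15 (0.13), Mrpl24 (0.14) and Snrnp40 (0.14), and Ccne1 less closely to Cops7a (0.22), Aebp2 (0.22) and Mrpl51 (0.23). Of the genes that fell, Ccnd3 lay closest to Gna12 (0.15), Serf2 (0.16) and Tbc1d1 (0.16) over 13 arrays, and Ccnd2, whose tumors all stood at the floor, to Prkd1 (0.07), Mtmr9 (0.09) and Ifi204 (0.10).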

How the data were processed

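Tumor and control lung RNA was hybridised to Affymetrix Murine Genome U74v2 arrays, and the deposited intensity values are MAS5 signals that the authors scaled to a target of 250 on each array. Probe sets were named from the platform annotation, where 10833 had 1 symbol, 396 several and 1193 none. Signals at or below 1e-06, all on 1 array, were treated as missing, signals were floored at 70 and taken to log2, and 8127 probe sets with 70 or more on at least 3 arrays were fitted with limma 3.58.1 (R 4.3.3) over the 4 groups, with a trend and Benjamini-Hochberg adjustment at 0.05. The fit was tested on simulated data. The labels call the arrays biological replicates, and their number limits the precision. Relations to Myc used permutation tests (scipy 1.17.1, 100000 resamples where not exact). Named genes were every member probe set, Myc, up to 3 of the largest called rises and falls of each pathway list and the 3 most similar genes. Members and lists were chosen with earlier results of these data known. Alternatives were floors, filters, normalizations, array weights, a replicate block, an unpaired t-test on the floored log2 signals and leaving out each array.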

Additional observations from a re-analysis of the deposited data

Results flagged for a closer look

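In Cdc25a at 97390_at, control lung replicate 4 read 262 and stood far above the other 3 control lungs, with a gap of 0.955 of the whole range of its group, over Dixon's critical value for groups of 4. It was the single array so marked among 21 groups of 4 screened, where chance marks about 1 in 20. Without it the log2 fold change over all tumors was 0.47 (adjusted p = 0.025), against 0.31 with it.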

How the results depend on the processing

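Counts are of the 12 tested probe sets, higher or lower against control lung. With 1 probe set per symbol the higher counts were 5 in all, 4 in small, 3 in middle and 5 in large tumors, as only 8 were then tested. The adjusted t-test gave 0 higher in middle tumors. The lower count was 1 in place of 2, through Ccnd2, in all tumors with a filter of 7 arrays and with array weights. It was also 1 in small, middle and large tumors with quantile normalization, no filter, a filter of 7 arrays, only the groups compared, array weights and both t-tests. Median scaling (through Ccnd2) and values of 0 kept (through Ccnd3) gave 1 lower in small and large tumors, and a robust fit without trend gave 1 in small tumors. Leaving out 1 array at a time gave 1 to 2 lower in small, middle and large tumors and 3 to 6 higher in middle tumors, with 3 when middle tumor 2 was left out. The unadjusted t-test called 1 lower in small against large and 2 higher in small against middle tumors. With the values near 0 kept on the array of middle tumor 3, Cdk4 at 160538_at was reversed in middle tumors (log2 -0.35, adjusted p = 0.774), since its missing value then entered at the floor, and its call over all tumors was lost (0.59, adjusted p = 0.513). Its calls in small (log2 1.03, adjusted p = 0.392) and large tumors (log2 1.09, adjusted p = 0.345) were lost too, with the log2 values unchanged. Same-numbered arrays did not deviate together (1 of 19 pairs correlated above 0.1, median -0.04), and the replicate block gave 8 higher and 2 lower in all tumors and changed no count. Of the single fold changes under alternatives, 1216 kept direction and side of the threshold, 81 lost their call, 20 gained one and 1 reversed.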
